A study of Homo sapiens with 4 samples.

Results

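The Jumonji histone demethylases described here are 10 genes whose products carry a JmjC domain, KDM2A, KDM2B, KDM3A, KDM4A, KDM4B, KDM4C, KDM5A, KDM5B, KDM6B and JMJD6. They were listed by symbol, with earlier results of these data known, and their probes were found by matching the RefSeq accession of each array spot to a gene symbol. Of the 10 genes, 8 were matched by 13 probes, whereas KDM4B and KDM5A matched no probe by accession here and have no value. The arrays carried 41000 non-control probes in all, of which 26222 were given a symbol, representing 17721 genes. All 13 member probes were well above background on all 4 arrays, none was saturated and none was flagged as an outlier.

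RNA came from OVSAYO, an established human line of ovarian clear cell carcinoma (CCC), and was hybridised to 4 single-colour Agilent arrays on 1 slide. Cells of the NS-si condition received a non-specific negative control siRNA, labelled scramble siRNA, and no CoCl2. Sp1-si cells received a pool of siRNAs against Sp1, a transcription factor that binds GC-rich promoter sequences, and no CoCl2. The NS-si → CoCl2 and Sp1-si → CoCl2 cells received the same siRNAs and were then exposed to 500 μM CoCl2, which mimics hypoxia in normal oxygen, for 4 h. All cells were transfected with a lipid reagent, and the labels give 40 h of culture before the exposure, whereas a legend of the study gives a shorter time. The arrays addressed which genes CoCl2 activates and whether that activation needs Sp1. There was 1 array of 1 culture per condition, so the differences below have no replicate check and no test, and their precision is limited by this number of arrays. Because 1 siRNA pool was used, a change after Sp1 silencing cannot be told apart from an effect of the pool on other transcripts. In bulk RNA, fewer cells carrying a transcript and less transcript per cell cannot be told apart.

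JmjC demethylases are dioxygenases that need oxygen, iron and 2-oxoglutarate to oxidise methyl groups on histone lysines, and each subfamily prefers certain positions. Their need for oxygen ties them to hypoxia, because less oxygen can lower their activity, and the genes of some of them, KDM3A above all, are known to be activated by hypoxia-inducible factors (HIFs). HIFs bind a short hypoxia response core in DNA, and cobalt stabilises their alpha subunits. The products of KDM2A and KDM2B act on H3K36, that of KDM3A on H3K9 with 1 or 2 methyl groups, those of the KDM4 genes on H3K9 and H3K36 with 3 methyl groups, those of the KDM5 genes on H3K4 and that of KDM6B on H3K27. JMJD6 is the outlying member, a lysyl hydroxylase that has also been described as an arginine demethylase.

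The promoter sequences of the members whose values differ most between conditions are shown first, because they hold the letters that Sp1 and HIFs are known to recognise. Each is the 250 bases before an annotated transcription start in RefSeq (GRCh38.p14), read 5′ to 3′ on the strand of the gene. Capitals mark the GC box GGGCGG, the classical Sp1 sequence, and the hypoxia response core ACGTG or GCGTG, on either strand, so that matches of the other strand appear as the reverse complement. KDM3A (chr2:86441121-86441370, plus strand) had GC boxes beginning 146 and 46 bases before the start and a core 26 bases before it. KDM4C (chr9:6757723-6757972, plus strand) had 5 cores and no GC box, and 4 of these cores lie in 2 copies of CACGTG, which reads as a core on both strands. KDM4A (chr1:43649899-43650148, plus strand) had 1 core, 79 bases before the start, and no GC box. KDM2B (chr12:121467379-121467628, minus strand) had 6 GC boxes and 2 cores at the most downstream of its 4 annotated starts. Its other windows, not shown, held fewer of both.
KDM3A: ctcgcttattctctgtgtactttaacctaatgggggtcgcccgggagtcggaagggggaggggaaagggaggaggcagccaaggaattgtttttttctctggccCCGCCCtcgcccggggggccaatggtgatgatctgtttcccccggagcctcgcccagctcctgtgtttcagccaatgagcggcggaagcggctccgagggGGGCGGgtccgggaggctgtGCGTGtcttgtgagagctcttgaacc
KDM4C: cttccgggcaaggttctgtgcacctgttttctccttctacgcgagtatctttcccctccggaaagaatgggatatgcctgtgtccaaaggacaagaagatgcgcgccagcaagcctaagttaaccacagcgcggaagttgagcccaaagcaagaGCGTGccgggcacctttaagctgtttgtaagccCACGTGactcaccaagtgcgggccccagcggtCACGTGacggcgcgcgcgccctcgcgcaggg
KDM4A: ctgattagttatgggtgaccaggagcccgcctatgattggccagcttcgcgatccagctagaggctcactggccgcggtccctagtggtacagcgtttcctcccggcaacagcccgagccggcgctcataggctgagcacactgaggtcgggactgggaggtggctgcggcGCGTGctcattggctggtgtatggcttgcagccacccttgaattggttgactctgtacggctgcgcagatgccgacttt
KDM2B: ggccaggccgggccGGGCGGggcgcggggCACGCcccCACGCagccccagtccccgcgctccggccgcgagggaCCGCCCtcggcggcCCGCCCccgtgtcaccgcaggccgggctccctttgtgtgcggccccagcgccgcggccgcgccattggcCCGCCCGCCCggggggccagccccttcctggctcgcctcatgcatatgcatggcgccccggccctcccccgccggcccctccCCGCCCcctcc

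Promoter windows were found for 9 of the 10 members, 15 windows in all, with none for JMJD6. A GC box was present in 10 of these windows, belonging to 7 genes, and a hypoxia response core in 12 windows, belonging to 9 genes. Among all 35116 windows of the same length, 42.6% held a GC box and 43.2% held a core. These shares count windows, so they cannot be set against the gene counts. The 2 KDM3A windows overlap and hold the same GC boxes and the same core. CACGTG occurred in 6.34% of all windows and in those of KDM4B and KDM4C. Starts of 1 gene differed. The 4 KDM2B windows held 6, 1, 2 and 0 GC boxes, from the most downstream start to the most upstream, and the KDM2A and KDM6B windows also differed between starts. Which start was used in OVSAYO cells was not measured, and a match in a window is a description and not a bound site.

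The values are processed signals as the scanner software gave them, with the background subtracted. For ratios, each array was scaled by its 75th percentile, which lay at a signal of 1142 for NS-si, 1100 for Sp1-si, 977 for NS-si → CoCl2 and 1285 for Sp1-si → CoCl2, so signals can be in another order than the scaled levels. Every log2 ratio is a difference of scaled log2 levels. A gene was counted as raised or lowered at a log2 ratio of at least 1 in size, and a gene with several probes was counted by its brightest. Each member probe had 1 spot, so the SD given is that of 10-spot probes of like signal, which covers differences between spots and not between cultures. SP1 itself had log2 ratios of Sp1-si to NS-si of -3.77 without and -3.87 with CoCl2 on its 10-spot probe. All 7 CCC markers examined, among them NAPSA and PAX8, were well above background on every array. Of 8 markers of leukocytes, fibroblasts and endothelium, PTPRC, PECAM1 and CDH5 were well above background on none. CD3E, CD68, COL1A2 and DCN were well above background on all 4 arrays, and COL1A1 matched no probe.

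In NS-si cells, CoCl2 raised 6 of the 8 measured members, KDM3A, JMJD6, KDM2B, KDM2A, KDM4C and KDM6B, and lowered none. Among 14620 genes tested in that comparison, 3.79% were raised and 3.22% lowered. The median log2 CoCl2 ratio of the 8 members was 1.17, with a range from -0.21 to 2.15, against a median of 0.00 over all genes tested. Without scaling between arrays, when 2.42% of all genes tested were raised, 3 of the 6 were still counted, KDM3A, JMJD6 and KDM2B. KDM2A, KDM4C and KDM6B then came to 0.98, 0.91 and 0.80. Beside them, 17 of 19 measured reference genes known to depend on hypoxia response elements (HREs) were raised in the same cells, with a median of 1.81.

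KDM3A removes methyl groups from H3K9, a mark of silent chromatin, and had the highest CoCl2 ratio of the measured members in both kinds of cells. Its brightest probe (A_24_P105761) had signals of 1224 in NS-si, 4655 in NS-si → CoCl2, 1099 in Sp1-si and 7711 in Sp1-si → CoCl2 cells. Both CoCl2 arrays were thus well above both untreated arrays, and the log2 CoCl2 ratio in NS-si cells was 2.15 with an SD of 0.030. The other KDM3A probes gave 2.18 (A_23_P258037) and 2.25 (A_23_P395075). Of 14620 genes, 65 had a higher ratio than KDM3A.

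JMJD6, measured by A_23_P311616, had signals of 1233 in NS-si, 4476 in NS-si → CoCl2, 1153 in Sp1-si and 4103 in Sp1-si → CoCl2 cells. Again both CoCl2 arrays stood above both untreated arrays. The log2 CoCl2 ratio in NS-si cells was 2.09 with an SD of 0.031, exceeded by 77 of 14620 genes. KDM3A and JMJD6 were the members that rose more than 4-fold.

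KDM2A and KDM2B encode H3K36 demethylases that bind unmethylated CpG-rich DNA through a CXXC zinc finger. KDM2A (A_23_P83917) had signals of 788 in NS-si, 1552 in NS-si → CoCl2, 717 in Sp1-si and 2001 in Sp1-si → CoCl2 cells, and its log2 CoCl2 ratio in NS-si cells was 1.20 (SD 0.036). KDM2B rose by 1.33 on its brighter probe (A_23_P87919), with an SD of 0.039, and by 1.23 on A_24_P18630. The paralogues therefore rose to a similar extent in NS-si cells, although they differed after Sp1 silencing, as given below.

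KDM4C, a demethylase of H3K9 and H3K36, had signals of 1170 in NS-si, 2199 in NS-si → CoCl2, 1183 in Sp1-si and 3741 in Sp1-si → CoCl2 cells on its brighter probe (A_23_P112201). This probe had a log2 CoCl2 ratio of 1.14 (SD 0.032) in NS-si cells, against 0.14 on the second KDM4C probe and 0.64 with the mean over both, so that its count as raised rests on 1 probe. KDM6B, which removes methyl groups from the Polycomb mark H3K27, was measured by A_24_P942630, with signals of 81.3 in NS-si, 141 in NS-si → CoCl2, 86.8 in Sp1-si and 162 in Sp1-si → CoCl2 cells. Its ratio of 1.02 lay close to the limit of 1, within its SD of 0.072, and was 0.68 with a normexp background correction.

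KDM4A and KDM5B were not counted as changed by CoCl2 in NS-si cells. KDM4A, a close paralogue of KDM4C, had a log2 CoCl2 ratio of -0.21 (SD 0.039), and was the single measured member below 0. KDM5B, an H3K4 demethylase, had 0.22 (SD 0.029) on its brighter probe, which became -0.01 without scaling.

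**Figure D1:**
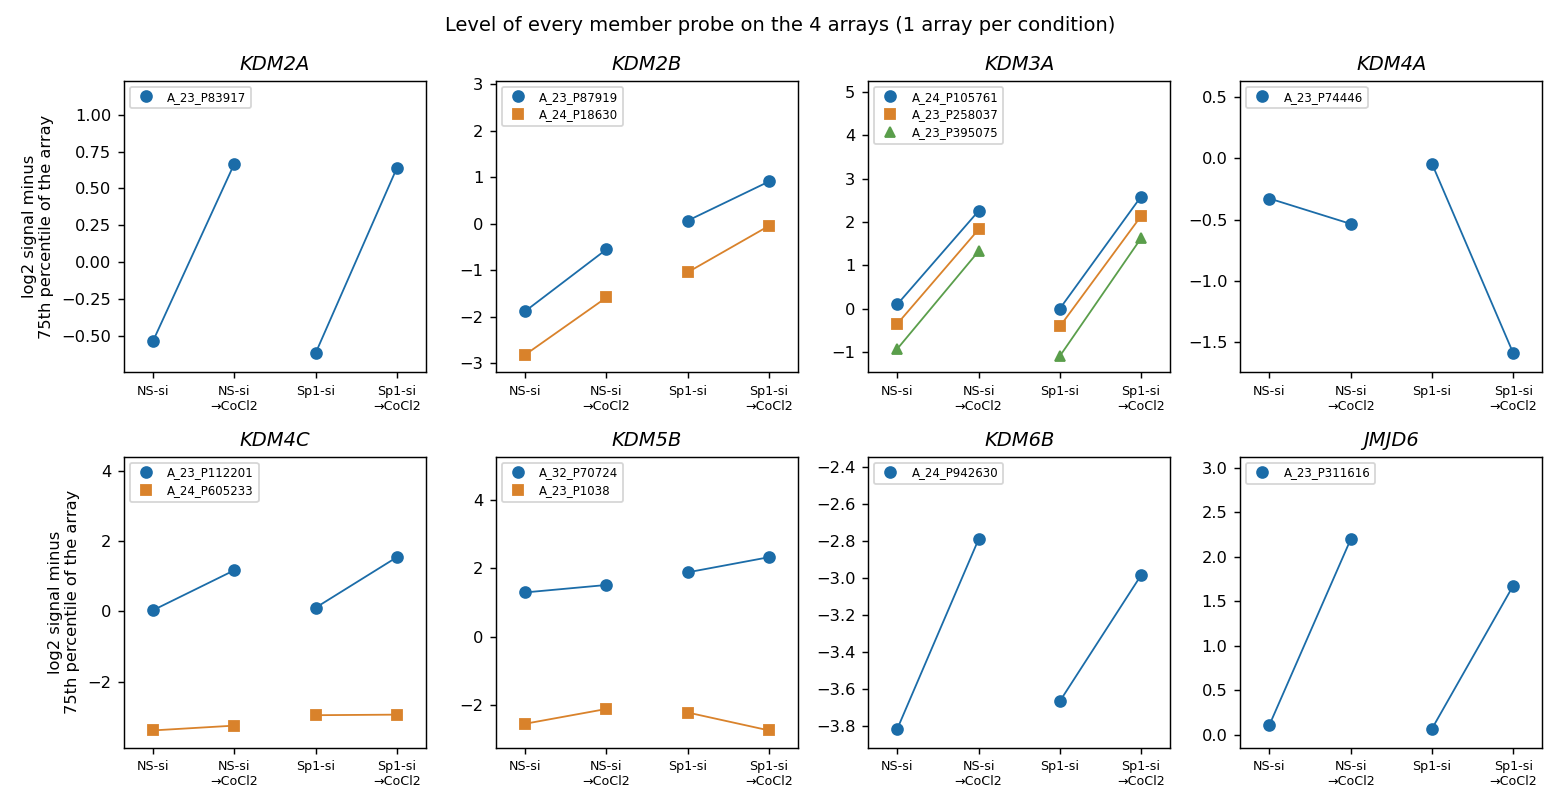
Scaled level of each member probe (log2 signal minus the 75th percentile of its array, y axis) on each of the 4 arrays (x axis), with lines joining the untreated and CoCl2-treated cells of the same siRNA. KDM3A and JMJD6 are higher on both CoCl2 arrays, KDM2B is higher on both Sp1-si arrays than on the matching NS-si arrays, and KDM4A is lowest in Sp1-si → CoCl2 cells.

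After Sp1 silencing, CoCl2 raised 4 of the 8 measured members, KDM3A, JMJD6, KDM4C and KDM2A, and lowered KDM4A. The background in Sp1-si cells was 3.47% raised and 3.64% lowered of 14453 genes, and the members had a median log2 ratio of 1.05, against 0.00 over all genes tested. KDM3A rose by 2.59 (SD 0.031), JMJD6 by 1.61 (SD 0.030), KDM4C by 1.44 (SD 0.031) and KDM2A by 1.26 (SD 0.032). The KDM4C value was 0.02 on its second probe and 0.73 with the mean over both. KDM2B and KDM6B, raised in NS-si cells, had values of 0.84 (SD 0.034) and 0.68 (SD 0.073) here, short of the limit of 1. The second KDM2B probe gave 0.997. Without scaling the brighter one came to 1.07, which made 5 members raised, against 6.09% of all genes tested. KDM5B had 0.44 (SD 0.029).

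KDM4A had signals of 909.5 in NS-si, 674 in NS-si → CoCl2, 1067 in Sp1-si and 428 in Sp1-si → CoCl2 cells on its single probe (A_23_P74446). The Sp1-si → CoCl2 array was the lowest of the 4 and the Sp1-si array the highest. Its log2 CoCl2 ratio in Sp1-si cells was -1.54 with an SD of 0.035, a 2.91-fold drop, and 127 of 14453 genes were lower. On its brighter probe the paralogue KDM4C had a CoCl2 ratio of opposite sign in Sp1-si cells, while its second probe lay within 1 SD of 0.

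**Figure D2:**
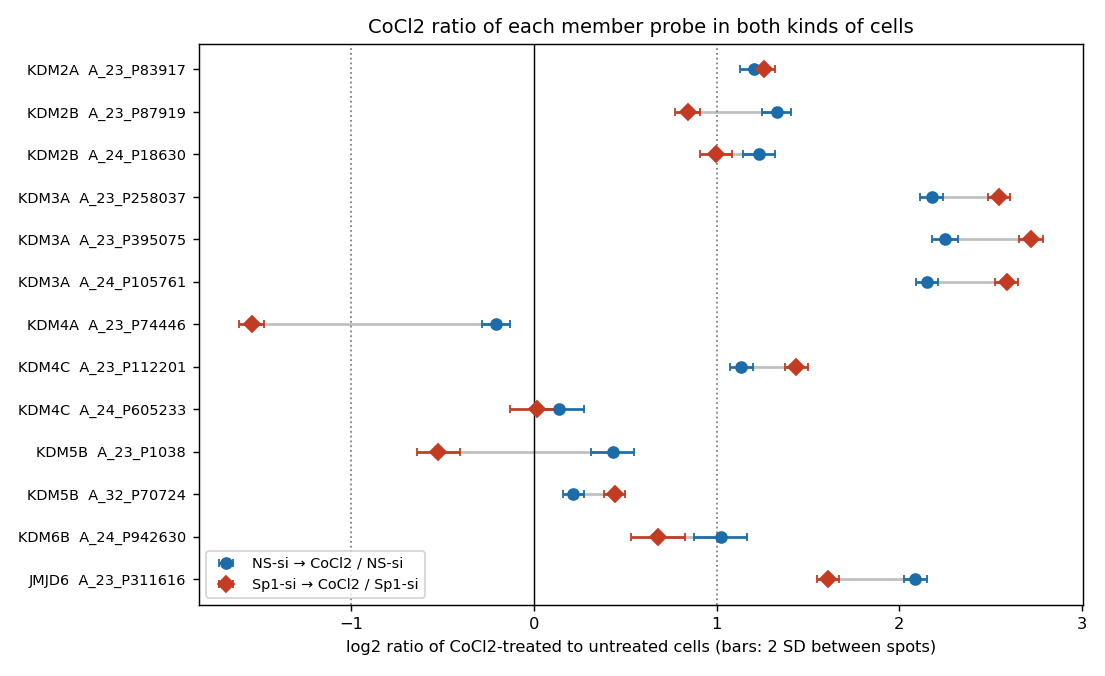
Log2 ratio of CoCl2-treated to untreated cells (x axis) for each member probe (y axis), in NS-si cells (circles) and Sp1-si cells (diamonds), with bars of 2 SD between spots and dotted lines at the limits of 1 and -1. In both kinds of cells the KDM3A and JMJD6 probes lie beyond 1.5, while the KDM4A probe lies at -0.21 with NS-si and -1.54 with Sp1-si.

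The difference of the CoCl2 responses, Sp1-si minus NS-si on the log2 scale, was past the limit for 1 of the 8 members, KDM4A at -1.34 (SD 0.050). Of 14283 genes tested on all 4 arrays, 2.86% were at -1 or lower and 0.994% at 1 or higher, and 114 genes were lower than KDM4A. Without scaling the KDM4A difference was -0.89, short of the limit. Over the 8 members the median difference was -0.14, with 4 above and 4 below 0, against 0.02 over all genes tested.

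KDM3A and JMJD6, whose CoCl2 ratios in NS-si cells were alike, had differences of opposite sign, 0.43 for KDM3A (SD 0.043) and -0.48 for JMJD6 (SD 0.043). The other KDM3A probes gave 0.37 and 0.47. KDM2B had -0.49 (SD 0.049), KDM6B -0.34 (SD 0.10), KDM4C 0.30 (SD 0.043), KDM5B 0.22 (SD 0.043) and KDM2A 0.05 (SD 0.046). Apart from KDM2A, each of these exceeded 2 SD between spots, but none reached 1 in size. These are values of the brightest probes. The other probes gave -0.23 (SD 0.062) for KDM2B, -0.12 (SD 0.099) for KDM4C and -0.95 (SD 0.083) for KDM5B. The sign of the difference thus depended on the probe for KDM4C and KDM5B. The 19 measured HRE reference genes had a median difference of 0.44, with 14 above 0. Because leaving out the scaling raised the difference of every probe by 0.45, the KDM6B value became 0.11 and JMJD6 came to -0.03, while KDM3A came to 0.88.

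Sp1 silencing without CoCl2 raised 1 of the 8 measured members, KDM2B, and lowered none, against a background of 5.85% raised and 5.82% lowered of 14616 genes. The members had a median log2 ratio of Sp1-si to NS-si of 0.11, against -0.01 over all genes tested. KDM2B encodes the subunit that brings a variant Polycomb repressive complex 1 (PRC1) to CpG islands. Its brighter probe had signals of 310.2 in NS-si, 667 in NS-si → CoCl2, 1152 in Sp1-si and 2411 in Sp1-si → CoCl2 cells. The NS-si array was the lowest of the 4 and the Sp1-si → CoCl2 array the highest, with every neighbouring pair apart by more than 2 SD. The log2 ratio was 1.95 (SD 0.032), a 3.85-fold rise, and 133 of 14616 genes were higher. The second probe, with signals of 162, 326, 534 and 1245 in the same order of arrays, gave 1.77 (SD 0.044).

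The other 7 measured members lay between -0.10 and 0.59 without CoCl2. KDM5B, at 0.59 (SD 0.027), and KDM4A, at 0.28 (SD 0.035), were the highest of them. KDM2A at -0.08, KDM3A at -0.10 and JMJD6 at -0.04 were close to their level in NS-si cells. KDM2A and KDM2B thus differed in their ratio after Sp1 silencing, -0.08 against 1.95.

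With CoCl2, Sp1 silencing left KDM2B higher, at a log2 ratio of 1.46 (SD 0.035), and KDM4A lower, at -1.05 (SD 0.037), with the other 6 measured members between -0.52 and 0.81. In this comparison 7.09% of 14398 genes were raised and 7.67% lowered, and the members had a median of 0.15 against -0.01 over all genes tested. The KDM4A value was short of -1 under 4 of the 10 other settings tried, and was -0.66 without scaling. KDM5B was at 0.81 (SD 0.031) on its brighter probe, which had signals of 2813 in NS-si, 2797 in NS-si → CoCl2, 4068 in Sp1-si and 6455 in Sp1-si → CoCl2 cells. The other KDM5B probe was at -0.63 and the mean over both at 0.09, so the direction for this gene depended on the probe. JMJD6 was at -0.52, KDM4C at 0.37, KDM3A at 0.33, KDM6B at -0.19 and KDM2A at -0.03. Without scaling, KDM5B passed the limit at 1.21, and KDM2A and KDM6B turned to 0.37 and 0.20.

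Across both treatments, Sp1-si → CoCl2 cells had 6.91-fold the KDM2B level of NS-si cells, a log2 ratio of 2.79, the widest range of any member. The corresponding log2 ratios were 2.49 for KDM3A, 1.56 for JMJD6, 1.51 for KDM4C, 1.17 for KDM2A, 1.03 for KDM5B, 0.83 for KDM6B and -1.26 for KDM4A. These are values of the brightest probes, and the other probes gave 0.45 for KDM4C and -0.20 for KDM5B.

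Some markers of other cells also moved with Sp1 silencing. Of the 8 markers of other cell types, 7 had a probe and 4 were well above background on all 4 arrays, CD3E, CD68, COL1A2 and DCN. The summed signal of the list was 1088 in NS-si, 1164 in NS-si → CoCl2, 497.5 in Sp1-si and 770 in Sp1-si → CoCl2 cells. COL1A2 had a log2 ratio of Sp1-si to NS-si of -3.10 and CD68 one of -1.48. Among the 7 CCC markers, NAPSA was at -2.33 without and -2.39 with CoCl2, while the summed signal of that list lay between 338500 and 400200. Neither list's sum was scaled between arrays. In NS-si cells KRT18 and EPCAM gave 146280 and 121010 of the 400200, so this sum could hardly show the NAPSA fall. The part of these marker shifts in the KDM2B result was not tested.

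**Figure D3:**
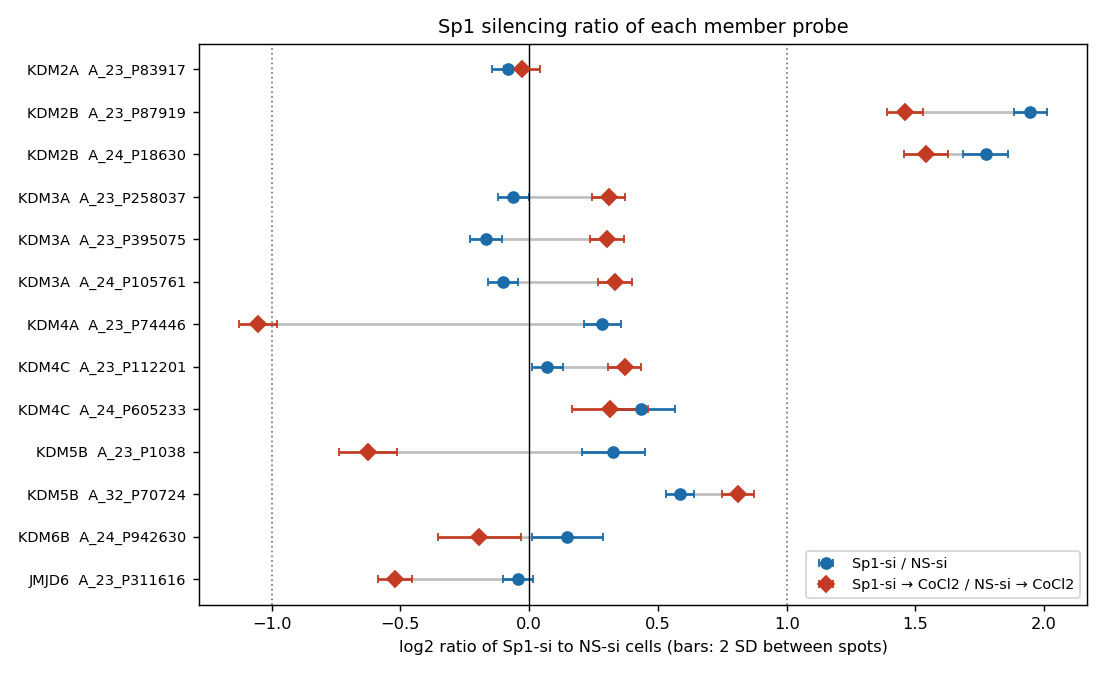
Log2 ratio of Sp1-si to NS-si cells (x axis) for each member probe (y axis), without CoCl2 (circles) and with CoCl2 (diamonds), with bars of 2 SD between spots and dotted lines at the limits of 1 and -1. Both KDM2B probes lie above 1 in either treatment, and KDM4A moves from 0.28 without to -1.05 with CoCl2.

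The genes whose pattern over the 4 arrays was nearest to that of KDM2B were sought among 14291 genes, by the Euclidean distance between log2 levels centred on their own mean. They were ALMS1P1 at 0.159, CDKN2D at 0.210, ALMS1 at 0.270, and ENTREP1 and B4GALNT4 at 0.298 each. CDKN2D, an inhibitor of the cyclin-dependent kinases of early cell cycle, had signals of 883 in NS-si, 2185 in NS-si → CoCl2, 3799 in Sp1-si and 6846 in Sp1-si → CoCl2 cells, in the same order as KDM2B. ALMS1, a centrosome and cilium gene, had a log2 ratio of Sp1-si to NS-si of 1.85, and ALMS1P1, its pseudogene, one of 1.92. These 2 share sequence, so their probes may not be independent. The likeness is a description over 4 arrays.

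Probes of 1 gene did not always move together. The 3 KDM3A probes and both KDM2B probes kept the same order of arrays within the gene. For KDM4C, the second probe (A_24_P605233), assigned to a different transcript accession, had signals of 109 in NS-si, 103 in NS-si → CoCl2, 142 in Sp1-si and 168 in Sp1-si → CoCl2 cells. Its log2 CoCl2 ratios were 0.14 (SD 0.070) with NS-si and 0.02 (SD 0.071) with Sp1-si, so the KDM4C rise was seen on 1 of its 2 probes.

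The KDM5B probes differed in direction. The dimmer one (A_23_P1038) had signals of 197 in NS-si, 228 in NS-si → CoCl2, 239 in Sp1-si and 194 in Sp1-si → CoCl2 cells, a log2 CoCl2 ratio of 0.43 (SD 0.059) with NS-si and -0.52 (SD 0.058) with Sp1-si. Its highest level was in NS-si → CoCl2 cells and its lowest in Sp1-si → CoCl2 cells, where the brighter probe was highest. The difference of the CoCl2 responses was -0.95 (SD 0.083) on this probe and 0.22 on the brighter one. KDM2A, KDM4A, KDM6B and JMJD6 had 1 probe each, so their values could not be compared between probes.

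Some neighbours in the order of levels did not differ beyond 2 SD between spots. These were the CoCl2-treated NS-si and Sp1-si cells for KDM2A, with a log2 gap of 0.03, the untreated NS-si and Sp1-si cells for JMJD6, with a gap of 0.04, and NS-si → CoCl2 and Sp1-si on the dimmer KDM5B probe, with a gap of 0.10. On the second KDM4C probe, Sp1-si → CoCl2 and Sp1-si were 0.02 apart, and NS-si → CoCl2 and NS-si 0.14 apart. All other neighbours of the 13 probes were farther apart than 2 SD.

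**Figure D4:**
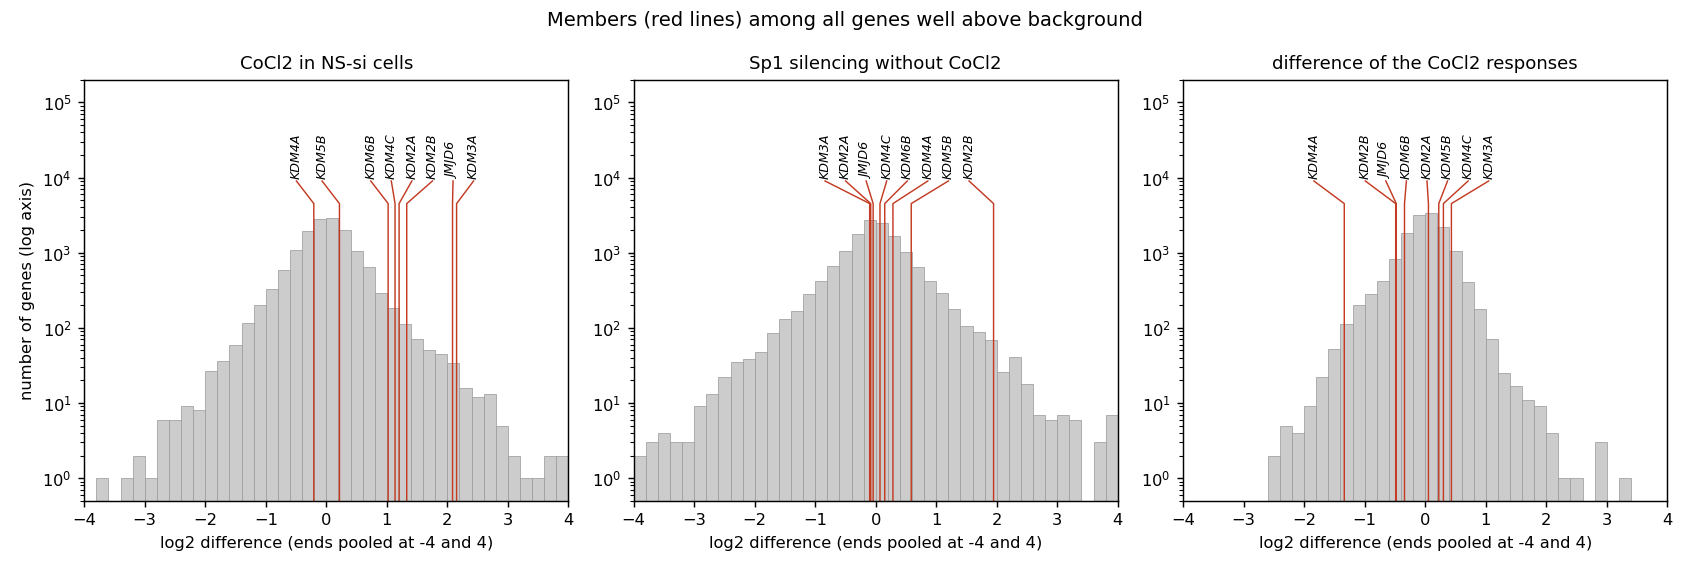
Distribution of log2 ratios over all genes tested (histograms, with the number of genes on a log y axis) for CoCl2 in NS-si cells, Sp1 silencing without CoCl2 and the difference of the CoCl2 responses, with the brightest probe of each of the 8 measured members marked by a red line. In the first panel 6 members lie above 1, in the second KDM2B alone, and in the third KDM4A alone lies below -1.

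Of 20 other genes with a JmjC domain, 18 were measured, and CoCl2 raised 2 of them in NS-si cells, KDM7A and JMJD1C, with none lowered and a median log2 ratio of 0.20. Over all genes tested, 3.79% were raised and 3.22% lowered. KDM7A, a demethylase of H3K9 and H3K27, had signals of 242 in NS-si, 574 in NS-si → CoCl2, 501 in Sp1-si and 1247 in Sp1-si → CoCl2 cells. The signal was lowest in NS-si and highest in Sp1-si → CoCl2 cells, with log2 CoCl2 ratios of 1.47 with NS-si and 1.09 with Sp1-si and a log2 ratio of Sp1-si to NS-si of 1.11. JMJD1C, a paralogue of KDM3A, rose by 1.16 in NS-si cells on its brighter probe, whereas its other probe gave -0.23. The difference of the CoCl2 responses was past 1 in size for none of the 18 genes, and ranged from -0.50 for KDM6A to 0.85 for KDM4D. The KDM4D probe was dim, with signals between 13.3 and 27.1 and an SD of 0.28 for this difference.

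The flavin-dependent demethylases use another chemistry, without a need for iron. Of 6 genes for these enzymes and their CoREST partners, all measured, CoCl2 raised none by the brightest probe and lowered 1 in NS-si cells, RCOR3 at -1.20, whose other probes gave -0.54 and -0.34. Shares over all genes tested were 3.79% raised and 3.22% lowered. RCOR1, a CoREST scaffold gene, had CoCl2 ratios of 0.86 with NS-si and 1.06 with Sp1-si on its brightest probe, and of 1.37 and 1.15 on a second probe that was also well above background throughout. KDM1A, the H3K4 demethylase LSD1, had signals of 564 in NS-si, 421 in NS-si → CoCl2, 1125 in Sp1-si and 1829 in Sp1-si → CoCl2 cells. It was raised by Sp1 silencing in either treatment, by 1.05 without and 1.72 with CoCl2, and RCOR3 by 1.16 with CoCl2, where its other probes gave 0.74 and 0.78.

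Histone lysine methyltransferases, some of which write marks that these demethylases remove, were measured for 25 of 26 genes. CoCl2 raised 1 of them in NS-si cells, the H3K79 enzyme gene DOT1L, by 1.30 on its brightest probe and with 0.83 and 0.55 on the others, and the median was 0.05. Over all genes tested, 3.79% were raised in that comparison. In Sp1-si cells CoCl2 lowered 2 of the 25, against 3.64% of all genes tested. Both encode enzymes of H3K36, ASH1L at -1.93 and SETD2 at -1.41 on their brightest probes. The other ASH1L probe was at 0.79, and the other SETD2 probes were at -0.41 and 0.09, so neither fall was seen on a second probe. The difference of the CoCl2 responses was at or below -1 for 3, ASH1L at -2.44, SETD2 at -1.30 and KMT2C at -1.07, and at or above 1 for none. The shares over all genes tested were 2.86% and 0.994%. The other probes of these genes gave differences smaller in size, -0.54 for ASH1L, -0.39 and -0.10 for SETD2, and between -0.89 and -0.18 for KMT2C. The brightest KMT2C probe had a signal of 39235 in NS-si cells, against 606 on the next brightest, a gap that was not examined. With CoCl2, Sp1 silencing raised SETD7 by 1.43 and EZH1 by 1.01, and lowered ASH1L (-1.78) and KMT2C (-1.14), against 0.04 on the other ASH1L probe and values between -0.94 and -0.04 on the other KMT2C probes.

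The 10 partners of KDM2B in variant PRC1 were all measured. Sp1 silencing without CoCl2 raised 1 of them, BCORL1, a co-repressor gene, by 1.15, and the median was 0.03. In this comparison 5.85% of all genes tested were raised. CoCl2 raised RYBP, a PRC1 subunit gene, by 1.31 in NS-si cells, and RYBP was at -1.06 in Sp1-si → CoCl2 relative to NS-si → CoCl2 cells, with -0.38 and -1.69 on its other probes. The difference of the CoCl2 responses was past 1 in size for none of the 10 on the brightest probe, while the 3 RYBP probes gave -0.26, -0.94 and -1.61.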

How the data were processed

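RNA of OVSAYO cells in 4 conditions was measured on 1 single-colour Agilent array each, all on 1 slide. The deposited intensity values are the processed signal of Agilent Feature Extraction 10.5.1.1, from which the authors' scanner software had subtracted the background and removed spatial trends, with no normalization between arrays. The deposited value table equals these intensities times 1 constant per array, and the paper names no normalization. Here, control and outlier spots were left out, log2 signals were scaled by the 75th percentile of each array, and a probe's spots were averaged. A probe was well above background where at least 50% of its spots were. For each comparison this was required on every array used. Symbols came from RefSeq accessions, matched for 28463 of the 29296 spots that carry one. The array annotation is on another genome build than the promoter table, so probe coordinates are not given.

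Genes with several probes were represented by the brightest and called at a log2 ratio of 1 in size. With 1 array per condition no p-value was computed. The SD of a 1-spot probe is the median SD of the 50 10-spot probes nearest in level. The spread between spots was 0.313 at the median of the dimmest 52 10-spot probes and 0.0282 at that of the brightest 52, for the CoCl2 ratio in NS-si cells. Depth is not defined for arrays. Spots well above background numbered between 33081 and 34542 per array.

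Named are all member probes, SP1, the listed genes past 1 in size in any comparison, or else those with the widest range, and the 5 genes nearest to the member of widest range. HRE reference genes are given by counts. The members and lists were chosen with earlier results of these data known. Other scalings, filters, thresholds and probe rules were tried as alternatives. A normexp correction (offset 50) of the median signals was chosen after seeing the data, in place of one planned on mean signals, which the files used here do not hold. The calling was tested on simulated data. Python 3.11.15, numpy 2.4.6, pandas 2.3.3, matplotlib 3.10.9, R 4.3.3 and limma 3.58.1 were used. Protein sequences were not analysed here, and 1 of the listed marker genes is not reported.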

Additional observations from a re-analysis of the deposited data

Results flagged for a closer look

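Sp1 silencing gave log2 ratios of opposite sign without and with CoCl2 for 6 member probes, and these differences were not tested, since each condition had 1 array. For KDM3A, the difference of the ratios, with minus without CoCl2, was 0.37 on A_23_P258037 (-0.06 without, 0.31 with), 0.47 on A_23_P395075 (-0.17 without, 0.30 with) and 0.43 on A_24_P105761 (-0.10 without, 0.33 with). KDM4A had a difference of -1.34 on A_23_P74446, from 0.28 without to -1.05 with CoCl2. On the dimmer KDM5B probe, A_23_P1038, it was -0.95, from 0.33 to -0.63. KDM6B had -0.34 on A_24_P942630, from 0.15 to -0.19, and without scaling the signs were no longer opposite and the difference was 0.11. The CoCl2 ratio of the dimmer KDM5B probe was likewise of opposite sign in the 2 kinds of cells, at 0.43 with NS-si and -0.52 with Sp1-si, a difference of -0.95 that was not tested either.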

How the results depend on the processing

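No paired analysis was possible because each condition had 1 array. Each of 10 other settings was compared with the values above, and none of the called values changed sign. Several of these settings shift every value of a comparison by the same amount, at most 0.45 in size, or leave values nearly unchanged. Those settings could not reverse a called value, which is at least 1 in size. Without scaling between arrays, CoCl2 raised 3 members in NS-si cells instead of 6, against 2.42% of all genes tested. Sp1 silencing with CoCl2 then raised 2 members and lowered 0, against 16% of all genes raised and 3.56% lowered. A difference of the CoCl2 responses at or below -1 was then found for 0 members, against 0.532% of all genes. Sp1 silencing with CoCl2 lowered 0 members also when each array was centred on its median, in the deposited value table and with normexp, because KDM4A fell short of -1. The shares of all genes lowered under these settings were 6.28%, 6.85% and 5.47%. With a limit of 0.5, Sp1 silencing raised 2 members without CoCl2, and with CoCl2 raised 2 and lowered 2. The share of all genes past 0.5 was not counted, so these counts have no background beside them. Over all genes tested, the upper quartile of this log2 ratio was 0.30 without and 0.38 with CoCl2. The lower quartile with CoCl2 was -0.40. Leaving out the scaling moved 48 of 55 member values and counts, while dropping the background filter or keeping outlier spots moved 0. Those settings could hardly move any, because every member probe was well above background on every array and none was flagged as an outlier. Leaving out the scaling shifted the median log2 ratio of all probes by -0.23 for CoCl2 in NS-si cells, 0.22 for CoCl2 in Sp1-si cells, -0.05 and 0.40 for Sp1 silencing without and with CoCl2, and 0.45 for the difference of the CoCl2 responses. Centring on the median shifted it by 0.11 for CoCl2 in Sp1-si cells and for Sp1 silencing with CoCl2. The share of raised genes among those called was 54% for CoCl2 in NS-si cells (29% without scaling), 48.8% for CoCl2 in Sp1-si cells (74.1%), 50.1% and 48% for Sp1 silencing without and with CoCl2 (44.3% and 81.8%), and 25.8% for the difference (92.3%). Under other scalings it reached 60.7% for CoCl2 in Sp1-si cells, 59.1% for Sp1 silencing with CoCl2 and 40.9% for the difference. Over all settings, KDM3A kept a CoCl2 ratio between 1.93 and 2.19 in NS-si cells, JMJD6 one between 1.86 and 2.09, and KDM2B a ratio of Sp1-si to NS-si between 1.76 and 1.99. KDM4C dropped to 0.64 in NS-si cells with the mean over its probes, and the same rule gave KDM5B a CoCl2 ratio of -0.04 in Sp1-si cells.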
